A study of Mus musculus with 2 samples.

Results

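The genes examined here encode the subunits of the mitochondrial respiratory chain and ATP synthase, and were taken as every feature whose symbol begins with Nduf, Uqcr, Cox4 to Cox8, Atp5 or mt-, or is Sdha, Sdhb, Sdhc or Sdhd. This gave 104 genes of the 19320 features measured, of which 91 lie in the nuclear genome and 13 in mitochondrial DNA. The nuclear members comprised 36 genes named as complex I subunits, 7 assembly factors of complex I, 4 genes of complex II, 8 of complex III, 19 of complex IV and 15 of ATP synthase, and the symbols Atp5s and Atp5sl, which were kept by the rule but assigned to no complex. The cells were dissociated from a prostatic intraepithelial neoplasia (PIN) tissue and a prostatic adenocarcinoma (PCa) tissue of mice of the genotype R26 mTmG/hAR:Osr1 Cre/+. There, Cre recombinase under Osr1 control turns on both a human androgen receptor transgene (hARtg) and membrane GFP (mGFP), and 1 library was made for each tissue. No transgene-free sample was part of these data.

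Cells carried 1 of 2 barcode endings, called barcode set 1 (6332 cells) and barcode set 2 (9410 cells) below. The labels did not pair an ending with a tissue, so barcode set, tissue, animal and library cannot be told apart, and no p-value is given because each set is 1 library. The sets held 134850345 and 187280119 unique molecular identifiers (UMIs, counted transcript molecules), and 67 barcodes (0.427% of the distinct barcodes) occurred in both. Intervals below are 95% and cover counting error only. Each cell had been kept by the authors only below a mitochondrial share of 10% (highest value 9.99%), which limits every comparison of mitochondrial transcripts. Features named EGFP and ARQ were read as mGFP and hARtg from their names.

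Oxidative phosphorylation passes electrons from NADH (complex I) or succinate (complex II) through complex III to oxygen at complex IV, and the proton gradient that results drives ATP synthase (complex V). Most subunits are encoded in the nucleus and imported, whereas mitochondrial DNA encodes core subunits of complexes I, III, IV and V, so that both genomes must supply each of these complexes. Prostate luminal cells are secretory and are known for accumulating citrate, whereas basal cells line the basement membrane.

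Of the 91 nuclear members, 76 reached 25 CPM (UMIs scaled to 1e6 per group) in both barcode sets, 6 stayed under 5 CPM in both and 9 lay between these limits. Together the nuclear members held 1913659 UMIs in set 1 and 3677840 in set 2, and the mitochondrial members held 5457104 and 9814266. UMIs from 3' libraries count molecules and were not divided by length.

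Because nuclear members are often described as sharing binding letters for NRF1 (nuclear respiratory factor 1), ETS-family factors and YY1, the windows from 250 bases before to 50 bases after the first listed RefSeq start (GRCm38.p6, the assembly also named mm10) were searched on both strands. Promoter entries matched 73 nuclear members. The NRF1 letters GCGCATGCG were in 10 of 73 windows (13.7%) against 1.81% of 27025 windows over all symbols, the ETS letters ACTTCCG in 13.7% against 6.59%, and the YY1 letters AAGATGGC in 11.0% against 2.88%. The NRF1 letters and their reverse complement can overlap. Stretches of the 250 bases before the start are shown because these genes stood at the ends of the comparisons below, with matches to the 3 motifs in capitals. The stretches lie at chr17:31519865-31520114 (plus strand) for Ndufv3, chr4:24897833-24898082 (plus strand) for Ndufaf4 and chr15:102671048-102671297 (minus strand) for Atp5g2.
Ndufv3: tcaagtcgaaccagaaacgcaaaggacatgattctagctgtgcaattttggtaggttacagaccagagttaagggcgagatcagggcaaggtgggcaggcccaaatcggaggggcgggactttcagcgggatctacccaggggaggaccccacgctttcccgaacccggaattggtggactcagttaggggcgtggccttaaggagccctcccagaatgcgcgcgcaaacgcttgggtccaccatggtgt
Ndufaf4: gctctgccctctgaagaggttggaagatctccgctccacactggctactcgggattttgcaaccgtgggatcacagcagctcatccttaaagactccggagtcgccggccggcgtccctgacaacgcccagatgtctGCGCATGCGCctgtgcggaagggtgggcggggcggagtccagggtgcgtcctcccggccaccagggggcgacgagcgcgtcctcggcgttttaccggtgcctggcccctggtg
Atp5g2: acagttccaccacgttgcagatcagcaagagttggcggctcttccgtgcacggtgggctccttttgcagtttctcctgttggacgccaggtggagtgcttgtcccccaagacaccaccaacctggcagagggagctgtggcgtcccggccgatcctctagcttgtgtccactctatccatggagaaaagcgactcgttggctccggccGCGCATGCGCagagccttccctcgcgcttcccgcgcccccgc
The Ndufaf4 and Atp5g2 stretches each held the NRF1 letters, and the Ndufv3 stretch held no match to the 3 motifs. A match is a description of the letters and not of a bound site.

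Cells were classed by marker genes for luminal, basal, leukocyte, fibroblast, endothelial and mural (smooth muscle or pericyte) identity after 155 and 175 cells called doublets were left out. Luminal gates held 2992 cells of set 1 and 7956 of set 2, basal gates 1483 and 199, leukocyte gates 1021 and 242, fibroblast gates 143 and 243, endothelial gates 39 and 160, and mural gates 8 and 37. Luminal marker UMIs were 150 per 10000 in luminal cells of set 1 and 35.4 in basal cells, and basal marker UMIs were 9.66 and 149. In set 2 the luminal markers were at 171 and 40.1, and the basal markers at 0.43 and 126. The part of these other-class transcripts in the results was not tested.

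Nuclear members took the largest share of transcripts in luminal cells. Their summed share was 1.59% of UMIs in luminal cells of set 1 and 2.06% in set 2, against 1.07% and 1.14% in basal cells, 1.27% and 0.95% in leukocytes, 0.90% and 0.96% in fibroblasts, and 0.88% and 1.04% in endothelial cells. Mural cells of set 2 had 1.63% from 37 cells. Within a class the cells spread widely, with quartiles of 1.32% and 1.81% around a median of 1.53% in luminal cells of set 1 and of 1.76% and 2.29% around 2.01% in set 2. The mitochondrial members took 4.34% and 5.40% in luminal cells, 3.58% and 4.62% in basal cells, 3.51% and 4.64% in leukocytes, 2.54% and 4.38% in fibroblasts, and 3.17% and 5.04% in endothelial cells. The mitochondrial share was higher in set 2 than in set 1 in each of these 5 classes, and the nuclear share was higher in 4 of them and lower in leukocytes. Cells within 1 percentage point of the mitochondrial limit made up 2.51% and 2.75% of luminal cells, 0.61% and 2.51% of basal cells, and 0.39% and 4.96% of leukocytes.

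**Figure D1:**
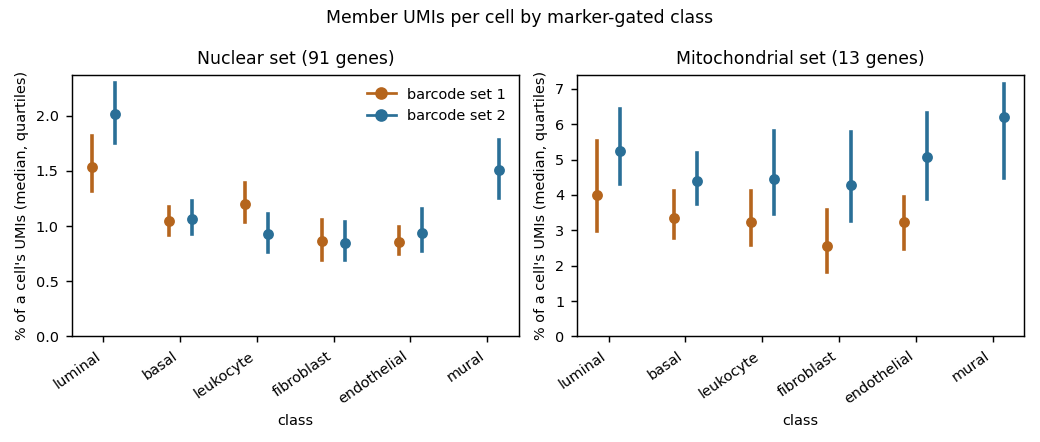
Share of a cell's UMIs from the 91 nuclear members (left) and the 13 mitochondrial members (right), in percent, by marker-gated class, with points at the median over cells and lines from the lower to the upper quartile, brown for barcode set 1 and blue for barcode set 2. The luminal medians of the nuclear set, 1.53% and 2.01%, lie above the basal medians, 1.04% and 1.07%; mural cells of set 1 (8 cells) are not drawn.

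The luminal and basal cells were compared within each barcode set, since both layers were captured in 1 library. The nuclear set was higher in luminal cells by 0.57 (0.56 to 0.58) on the log2 scale in set 1 and by 0.86 (0.84 to 0.88) in set 2, and the mitochondrial set by 0.28 (0.27 to 0.28) and 0.22 (0.21 to 0.23). Of 76 nuclear members with a mean of 25 CPM in set 1, 47 were at least 1.5-fold higher in luminal cells and 0 were lower by that fold, against 28.2% higher and 20.5% lower of all 4648 genes at that level. In set 2, 61 of 77 were higher and 1 was lower, against 30.6% and 31.8% of all genes. The median log2 ratio of the nuclear members was 0.71 and 0.93, and that of all genes 0.03 and -0.05. The median depth of luminal cells was above that of basal cells in both sets, and its part in the ratios was not tested.

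Complexes I and II had the highest summed ratios in both sets. Nuclear subunits of complex I summed to a log2 ratio of 0.91 in set 1 and 1.21 in set 2, complex II to 0.92 and 0.87, complex III to 0.48 and 0.63, complex IV to 0.42 and 0.82, and ATP synthase to 0.46 and 0.72. Ndufv3, an accessory subunit of the NADH-oxidising module, had the highest ratio in both sets among members with a mean of 25 CPM or more. Its basal CPM was under 25 in both sets, so it met this limit through its luminal values. It was at 67.8 CPM in luminal and 11.6 CPM in basal cells of set 1 (log2 ratio 2.54, 2.35 to 2.74), and at 89.7 and 15.1 CPM in set 2 (2.57, 2.01 to 3.20). Ndufa8, an accessory complex I subunit, was at 177 and 44.1 CPM in set 1 (2.01, 1.91 to 2.11). Ndufc2, a subunit of the membrane arm, was at 250.0 and 74.3 CPM in set 1 (1.75, 1.68 to 1.83). In set 2 Ndufa6 was at 197 and 51.2 CPM (1.95, 1.64 to 2.27) and Ndufb9 at 756 and 208 CPM (1.86, 1.71 to 2.02). All 5 are accessory subunits of complex I, and their luminal values were above the basal values in the set given.

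At the other end, Ndufaf4, an assembly factor of complex I, was lower in luminal cells of both sets. It was at 29.0 CPM in luminal and 43.1 CPM in basal cells of set 1 (-0.57, -0.69 to -0.46) and at 30.3 and 66.2 CPM in set 2 (-1.13, -1.40 to -0.84). Ndufs1, the largest iron-sulphur subunit of complex I, stood at 26.9 and 28.9 CPM in set 1 (-0.11, -0.24 to 0.03), an interval that includes 0. Atp5b, the catalytic beta subunit of ATP synthase, was at 715 and 739 CPM in set 1 (-0.05).

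The mitochondrial genes did not share 1 ratio. The complex IV core gene mt-Co1 was at 8492 CPM in luminal and 5289 CPM in basal cells of set 1 (0.68) and at 10214 and 5756 CPM in set 2 (0.83). In contrast, the complex I gene mt-Nd2 was lower in luminal cells, at 1717 and 2030 CPM in set 1 (-0.24, -0.26 to -0.23) and at 1858 and 2828 CPM in set 2 (-0.61, -0.65 to -0.56). mt-Co1 made up 19.5% and 18.9% of mitochondrial UMIs in luminal cells of the sets and 14.8% and 12.4% in basal cells. The other abundant genes stayed closer together: mt-Atp6 had log2 ratios of 0.15 and 0.26, mt-Co2 of 0.31 and 0.32, mt-Cytb of 0.20 and 0.24, and mt-Co3 of 0.18 and -0.01. mt-Nd1 stood at 0.33 and -0.13, mt-Nd4 at 0.29 and -0.07, mt-Nd3 at 0.40 and -0.13, and mt-Nd5 at 0.75 and 0.42. The ratios of mt-Atp8 (0.69 and 0.19) and mt-Nd4l (0.69 and 0.17) are uncertain because these genes overlap mt-Atp6 and mt-Nd4, and mt-Nd6, on the opposite strand to mt-Nd5, was at 5.07 and 11.0 CPM in set 1 and 4.70 and 7.23 CPM in set 2.

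**Figure D2:**
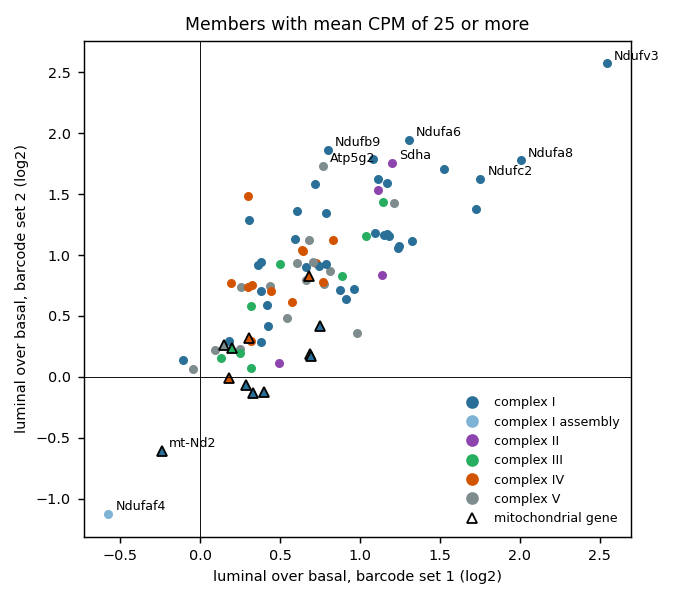
Log2 ratio of luminal over basal CPM for each member with a mean of 25 CPM or more in both sets, barcode set 1 on the horizontal and barcode set 2 on the vertical axis, coloured by complex, with outlined triangles for mitochondrial genes. Ndufv3 lies at 2.54 and 2.57 at the upper right, and Ndufaf4 at -0.57 and -1.13 and mt-Nd2 at -0.24 and -0.61 lie below 0 on both axes.

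Of the 45 assembly and transport genes outside the rule (such as the cytochrome oxidase assembly factors and the adenine nucleotide carriers), 17 reached 25 CPM in set 1, of which 4 were higher in luminal cells past the fold and 1 was lower, beside 28.2% and 20.5% of all genes, so the count of higher genes was near or below that of all genes. In set 2, 11 of 21 were higher and 2 were lower, beside 30.6% and 31.8%. This list also holds Cyc1, a subunit of complex III, and Cycs, the cytochrome c that carries electrons to complex IV, whose symbols the rule does not take. Cyc1 was at 160.5 CPM in luminal and 127 CPM in basal cells of set 1 (0.34) and at 317 and 146 CPM in set 2 (1.12, 0.94 to 1.31). Cycs was at 131 and 134 CPM (-0.04) and at 118 and 139 CPM (-0.24). Of the 16 measured regulators of the nuclear and mitochondrial genes, 4 reached that level in each set, with 0 higher and 2 lower in set 1 and 0 higher and 3 lower in set 2, beside the same shares of all genes.

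The luminal excess of nuclear members was also present against the non-epithelial classes. Against leukocytes the nuclear set was higher by 0.32 (0.31 to 0.33) in set 1 and by 1.11 (1.09 to 1.13) in set 2, with 20 of 77 and 59 of 77 nuclear members past the fold upwards and 1 and 0 downwards. The shares of all genes were 26.8% and 38% in set 1 and 39.3% and 27.3% in set 2, so the set 1 count of higher members was near that of all genes. Against fibroblasts the nuclear set was higher by 0.81 and 1.11, with 56 of 76 and 67 of 77 members higher and 2 and 1 lower. Of all genes, 36.1% were higher and 25.9% lower in set 1, and 30% and 30.7% in set 2. Against endothelial cells of set 2 it was higher by 0.99, with 63 of 77 members higher and 0 lower, beside 26% and 40.6% of all genes. The mitochondrial set was higher by 0.31 against leukocytes and 0.77 against fibroblasts in set 1, close to the nuclear values there. In set 2 it was higher by 0.22 against leukocytes, 0.30 against fibroblasts and 0.10 against endothelial cells, below the nuclear values. In set 1 the highest members against leukocytes were Ndufa7 of complex I at 220 and 53.5 CPM (2.04, 1.87 to 2.21), Uqcr11 of complex III (2.02, 1.79 to 2.25) and Ndufa4, now counted as a complex IV subunit, at 448 and 133 CPM (1.75), and the smallest values were Ndufs1 (-0.74), Sdha (-0.30) and Ndufa9 (-0.27). In set 2 Cox4i2 (3.83), Ndufa1 (2.18) and Ndufb9 (2.18) led. Cox4i2 was at 7.25 CPM in these leukocytes and met the mean of 25 CPM through its luminal value of 103 CPM. Against fibroblasts Ndufb7 (2.32), Uqcr11 (2.24) and Ndufa4 (1.94) led in set 1, and Ndufs6 (1.95), Ndufb9 (1.95) and Uqcr11 (1.89) in set 2, while Cox6b2 (-5.95) in set 1 and Ndufa4l2 (-5.35) in set 2 were at the lower end. Cox6b2 and Ndufa4l2 stood there at 1.25 and 2.04 CPM in luminal cells and met the mean through their fibroblast values. Ndufb7 was at 20.1 CPM (25 UMIs) in fibroblasts of set 1 and met the mean through its luminal value of 100.5 CPM. Against endothelial cells Ndufb9 (2.10), Ndufa1 (2.09) and Ndufa7 (2.08) led, and mt-Nd2 (-0.47) and Atp5j (-0.30) were lowest. Sdhb, the iron-sulphur subunit of succinate dehydrogenase, was lower in luminal cells than in leukocytes of set 2, at 111 and 149 CPM (-0.43, -0.60 to -0.25).

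Some members with a restricted isoform pattern differed more between cell classes than the nuclear and mitochondrial sets did. Some of their values also differed between the barcode sets within a class, as given below. Cox4i2, the alternative isoform of the complex IV subunit Cox4i1, was at 605 CPM (524 to 694) in the 45 mural cells of both sets. Those cells pool 8 of set 1 and 37 of set 2, whereas the other classes are given by set. Ndufa4l2, a paralogue of Ndufa4, was at 1297 CPM in these cells, in which Ndufa4 stood at 84.3 CPM. Endothelial cells of set 2 had 27.9 CPM of Cox4i2 and 30.7 CPM of Ndufa4l2, and fibroblasts of set 2 had 42.7 and 83.1 CPM. Fibroblasts of set 1 had 22.6 CPM of Cox4i2 and 13.7 CPM of Ndufa4l2 (17 UMIs). For Ndufa4l2 the log2 ratio of set 2 over set 1 in fibroblasts was 2.60 (1.85 to 3.43). The CPM of both genes was highest in the pooled mural cells. A cluster led by Rgs5 and Col1a1 held 35 of the 37 mural cells and 9 of the 243 fibroblasts of set 2, and its part in the fibroblast values was not tested. Cox6b2, an isoform of Cox6b1, was highest in fibroblasts, at 77.4 CPM (62.7 to 94.5) in set 1 and 17.4 CPM (10.9 to 26.4) in set 2, and did not exceed 2.23 CPM in luminal, basal or leukocyte cells. Of the muscle-type isoforms, Cox6a2 had 24 UMIs and Cox8b 6 UMIs over all cells, and Cox7a1 was at 1.28 and 1.54 CPM in luminal cells beside 165 and 242 CPM of Cox7a2. Cox7b2, known from testis, had 18 UMIs over all cells. Cox8c was not among the features used here.

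Cox4i2 was higher in set 2 in luminal and basal cells and in leukocytes. It was at 0.74 CPM (0.58 to 0.94, 70 UMIs) in luminal cells of set 1 and at 103 CPM (102 to 105, 17843 UMIs) in set 2, a log2 ratio of 7.12 (6.79 to 7.48). Its partner Cox4i1 was at 1330 and 2090 CPM. Basal cells of set 2 had 37.9 CPM (63 UMIs) and those of set 1 had 0.40 CPM (8 UMIs), a log2 ratio of 6.58 (5.51 to 7.85). Of the basal UMIs of set 2, 58 came from EGFP-high cells (20 or more EGFP UMIs per 10000) and 4 from cells under 5. Few of those EGFP-high cells held a UMI of Cox4i2, a spread between cells that the interval does not cover. Leukocytes had 7.25 CPM (3.86 to 12.4, 13 UMIs) in set 2 and 0.37 CPM (2 UMIs) in set 1 (4.29, 2.15 to 7.48), and fibroblasts 42.7 and 22.6 CPM (0.92, 0.24 to 1.63). The part of free RNA in these values was not tested. Within set 2 the luminal level was 4.91 CPM in cells with under 5 EGFP UMIs per 10000 and above 0, 42.6 CPM at 5 to 20, 104 CPM at 20 to 50, 142 CPM at 50 to 100, 81.1 CPM at 100 to 150 and 33.3 CPM at 150 or more. Luminal cells with alpha-defensin transcripts had 157 CPM and proliferating cells 129 CPM, against 48.8 CPM in cells with high Krt6a and Clu and 15.2 CPM in cells with Tgm4. In EGFP-high luminal cells of set 1 the gene stood at 1.48 CPM. The part of EGFP level and of cluster in the difference between the sets was not tested.

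**Figure D3:**
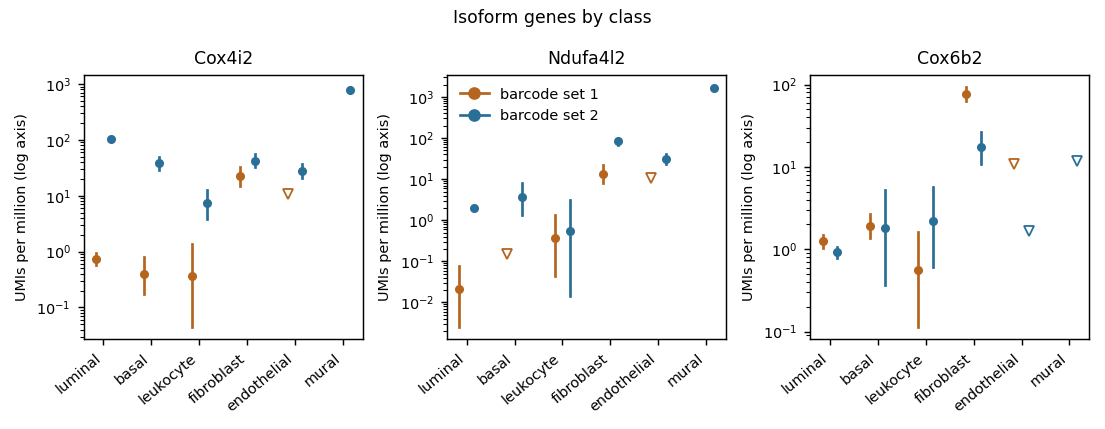
CPM on a log axis for Cox4i2, Ndufa4l2 and Cox6b2 in each class, with points for the summed value, lines for the exact Poisson interval, and open triangles at the level of 3 UMIs where none was counted, brown for barcode set 1 and blue for set 2. Cox4i2 in luminal cells is at 0.74 CPM in set 1 and 103 CPM in set 2; mural cells of set 1 (8 cells) are not drawn.

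Across the barcode sets, luminal cells of set 2 had the higher nuclear level by 0.38 (0.37 to 0.38) and the higher mitochondrial level by 0.31 (0.31 to 0.32). These cells fell into different clusters: those led by Msmb or by Krt6a and Clu were nearly all of set 1, and those led by Pate4 and Svs genes, by Sln and Wif1, by Mt4 and Gulo, by Ube2c and Birc5, by Tgm3 and Defa21 or by Sbpl and Sbp were nearly all of set 2. Of 78 nuclear members 17 were past the fold upwards and 0 downwards, beside 16.7% and 27.9% of all genes, so the count of higher members was near that of all genes. After Cox4i2 the highest were Ndufb9 at 756 and 277 CPM (1.45, 1.43 to 1.47) and Atp5g2, 1 of 3 genes for the membrane ring subunit c of ATP synthase, at 982 and 435 CPM (1.17, 1.16 to 1.19). Atp5g2 made up 67.5% of the UMIs of the Atp5g genes in luminal cells of set 2 and 47.9% in set 1, while Atp5g1 stood at 14.3% and 26.0% and Atp5g3 at 18.2% and 26.1%. In basal cells the Atp5g2 share was 46.3% in set 1 and 48.0% in set 2. At the lower end stood mt-Nd4l at 63.8 and 146 CPM (-1.19), mt-Atp8 at 31.5 and 45.8 CPM (-0.54) and Ndufb7 at 76.4 and 100.5 CPM (-0.40, -0.43 to -0.36). Restricted to EGFP-high luminal cells, the nuclear set was higher in set 2 by 0.31 and the mitochondrial set by 0.16.

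The other classes compared across the sets differed in the mitochondrial set. Basal cells of set 2 had 0.37 more mitochondrial and 0.08 more nuclear UMIs on the log2 scale, with 2 of 73 nuclear members higher and 1 lower past the fold (6.42% and 10.8% of all genes). Fibroblasts of set 2 had 0.78 more mitochondrial and 0.08 more nuclear UMIs, with 7 of 75 nuclear members higher and 2 lower (11.7% and 10.1%) and 9 of 11 mitochondrial genes higher. A cluster led by Igfbp4 and Pi16 held 51 of the 243 fibroblasts of set 2 (21.0%) and 1 of the 143 of set 1 (0.70%). Another, led by Apod and Ccl2 and given no class name, held 182 and 142 of them. A further 9 of set 2 lay in a cluster led by Rgs5 and Col1a1, also without a class name. The part of these clusters in the result was not tested. Leukocytes of set 2 had 0.40 more mitochondrial and 0.42 fewer nuclear UMIs, with 1 of 75 nuclear members higher and 24 lower (17.5% and 48.2%). Both counts were below those of all genes. The leukocyte clusters differed as well, since one led by Jchain and C1q genes held 244 cells of set 2 and 132 of set 1, and one led by Ccl5 and Gzma held 19 and 911. These counts are of all cells in a cluster, including cells outside the leukocyte gate.

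The EGFP level, which marks Osr1-lineage recombination, was compared within a class and set. In luminal cells of set 1, the 401 EGFP-high cells (20 or more EGFP UMIs per 10000) had a nuclear level 0.10 (0.09 to 0.11) and a mitochondrial level 0.27 (0.26 to 0.27) above the 1448 cells without an EGFP UMI. No nuclear member passed the fold in either direction (0 of 77), beside 6.13% higher and 11.8% lower of all genes. Ndufs4, a complex I subunit, was highest at 178 and 123 CPM (0.53, 0.46 to 0.60), then mt-Cytb (0.48) and Cox4i1 at 1688 and 1227 CPM (0.46), and the lowest were Ndufa9 (-0.48), Ndufaf4 (-0.45) and Sdhd (-0.36). Luminal marker UMIs stood at 81.3 per 10000 in the EGFP-high and 170 in the EGFP-0 cells, and their part in the result was not tested.

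In set 2 the comparison rests on 21 luminal cells without an EGFP UMI against 7642 EGFP-high cells, and 84.3% of the leukocytes there also held an EGFP UMI. The nuclear level was 0.36 (0.31 to 0.41) and the mitochondrial level 0.14 (0.11 to 0.16) above those 21 cells, with 17 of 77 nuclear members higher and 1 lower past the fold, beside 20.3% and 27.7% of all genes. The count of higher members was thus near that of all genes. Cox4i2 (3.50, 1.65 to 6.55) led on 2 UMIs in the EGFP-0 cells, then Ndufa5 (1.45, on 5 UMIs) and Cox6c (1.15), and Ndufaf4 (-0.89), mt-Nd5 (-0.64) and mt-Atp8 (-0.59) were lowest. With the 237 luminal cells under 5 EGFP UMIs per 10000 as the lower side, an alternative chosen after these counts were seen, the values were 0.36 and 0.12. In basal cells of set 1, 311 EGFP-high cells stood at -0.03 (-0.05 to -0.02) for the nuclear set (0.022 with classes from clusters) and 0.06 (0.06 to 0.07) for the mitochondrial set against 803 EGFP-0 cells, with 1 of 72 nuclear members higher and 0 lower (4.5% and 4.87% of all genes). The 1 member was Ndufa1, a small complex I subunit encoded on the X chromosome, at 83.4 and 53.2 CPM (0.65, 0.46 to 0.84), followed by Cox7a2l (0.44) and Ndufa6 (0.40), and the smallest values were Ndufab1 (-0.49), Ndufs5 (-0.42) and Ndufv2 (-0.37). In basal cells of set 2, a comparison added to those designed, 90 EGFP-high cells stood at -0.12 (-0.16 to -0.08) for the nuclear set and 0.04 (0.02 to 0.06) for the mitochondrial set against 78 cells under 5 EGFP UMIs per 10000, with 3 of 75 nuclear members higher and 6 lower (8.74% and 5.11% of all genes). With every cell weighing the same the set values were -0.19 and 0.083. Cox4i2 led at 65.8 and 6.70 CPM (log2 ratio between 1.86 and 5.22), on 58 and 4 UMIs, and 7.78% of the EGFP-high cells held a UMI of it.

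By EGFP level, the mitochondrial share of luminal cells was not monotonic. In set 1 it was 4.02% in cells with no EGFP, 4.45% under 5, 4.81% at 5 to 20, 5.05% at 20 to 50, 4.90% at 50 to 100 and 4.06% at 100 to 150 UMIs per 10000. In set 2 it was highest at 20 to 50, with 6.18%, and was 4.75% at 150 or more. The nuclear share of set 2 was 1.62% under 5 and between 2.02% and 2.10% in the bins from 20 upwards.

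**Figure D4:**
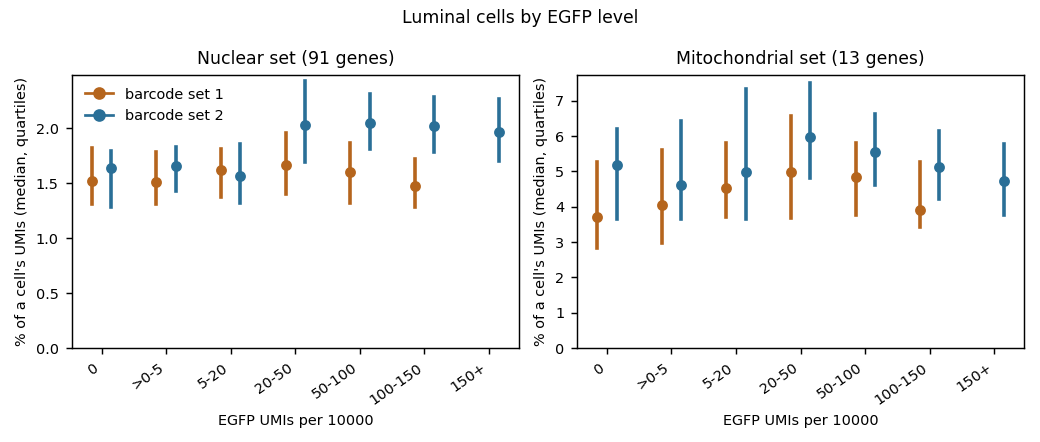
Share of a cell's UMIs from the nuclear members (left) and the mitochondrial members (right), in percent, of luminal cells by EGFP UMIs per 10000, with points at the median and lines from the lower to the upper quartile, brown for barcode set 1 and blue for set 2. Nuclear medians of set 2 lie near 2% from 20 EGFP UMIs upwards and between 1.57% and 1.65% below; the 0 bin of set 2 holds 21 cells.

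Within luminal cells, subgroups defined by other genes differed in the relation of the sets. Cells with high Krt6a and Clu were those with 50 or more UMIs of both genes summed per 10000. A high count of either gene alone could meet this limit. The cells so gated had a lower nuclear level than other luminal cells in both barcode sets, by -0.32 (-0.33 to -0.32) in set 1 (1476 cells) and -0.25 (-0.26 to -0.24) in set 2 (393 cells). Of the nuclear members, 11 of 77 and 4 of 78 were lower past the fold and 0 were higher, beside 10.2% and 8.37% of all genes lower and 12.9% and 12% higher. The counts of lower members were thus near those of all genes. The cells so gated lay in different clusters, since 1209 of the 1476 cells of set 1 (81.9%) were in the cluster led by Krt6a and Clu, and 279 of the 393 cells of set 2 (71.0%) were in the one led by Pate4 and Svs genes. Ndufa1 was the lowest in set 1 at 91.3 and 173 CPM (-0.92, -0.97 to -0.87). In set 1 the mitochondrial level was lower by -0.34 in these cells, and in set 2 it was higher by 0.16. Proximal-type luminal cells (465 cells of set 1) combined a mitochondrial level 0.44 above other luminal cells with a nuclear level of -0.08, and all 12 mitochondrial genes tested were above 0. The share of all genes above 0 is not given for that comparison, and the 12 genes share 1 genome and 1 denominator. Msmb cells of set 1 stood at 0.24 and 0.19 for the nuclear and mitochondrial sets, and Tgm4 cells at 0.18 and -0.31. In set 2, proliferating cells stood at 0.13 and -0.06, Mt4 and Gulo cells at 0.10 and 0.06, and defensin cells at 0.07 and 0.07.

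Across single cells the nuclear and mitochondrial shares were only weakly related. Spearman's rho was 0.15 over the 2992 luminal cells of set 1 and 0.04 over the 7956 of set 2, 0.14 and 0.03 in basal cells, 0.11 and 0.18 in leukocytes, and 0.0019 and -0.16 over the 143 and 243 fibroblasts. These values describe cells of 1 library each, which share depth and free RNA, and both shares have the same denominator.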

How the data were processed

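Droplet libraries (10x Genomics, 3' v2 chemistry) of PIN and PCa tissue were aligned by the authors with Cell Ranger 3.1.0 to mm10 with mGFP and hARtg added. The deposited table, named counts, holds natural log values, ln(1 + 10000 x UMIs / total UMIs) per cell, made by the authors in Seurat. UMIs were recovered as whole numbers (all values of 100% of cells within 0.0001 of a whole UMI). Gates used the mean marker value of each class, with doublets called by Scrublet in Scanpy 1.11.5 at a score above 0.25, since the automatic limit called none. UMIs were summed per class and barcode set, and ratios were given with exact intervals and no test. A member was counted past the fold at a CPM ratio of 1.5 or more (or its inverse) with a mean of 25 CPM or more over both sides. A member low on 1 side can meet this mean through the other side alone, which favours large ratios among the members named. Named members were the mitochondrial genes, the listed isoforms and members from the 3 highest and lowest of a comparison, with further members named after their values were seen. The 3 highest and lowest are not given for every comparison. They are left out for basal cells, fibroblasts and leukocytes across the sets, and given only in part for EGFP in basal cells of set 2. Members, lists and gene sets were chosen with earlier results of these data known, and the gate, doublet, subgroup and EGFP limits were set with the data in view. The comparison by EGFP in luminal cells of set 2 was kept as designed although it holds 21 cells, and the lower side of under 5 EGFP UMIs per 10000 was added after this count was seen. Comparisons with leukocytes, fibroblasts and endothelial cells, of luminal subgroups, of EGFP in basal cells of set 2, and of classes other than luminal across the sets were added to the 6 designed comparisons as descriptions. Ratios and their intervals were tested on simulated Poisson counts. These held no spread between cells, free RNA or library differences, so the test does not cover those. Alternatives covered the denominator, cell weights, doublets, classes from clusters and the EGFP split. Processed pseudogenes can share reads with nuclear members. No reference proteins were used here.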

Additional observations from a re-analysis of the deposited data

Results flagged for a closer look

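The mitochondrial set of luminal cells with high Krt6a and Clu stood at -0.34 on the log2 scale against other luminal cells in barcode set 1 and at 0.16 in set 2, opposite directions that were not tested against each other. The nuclear set of luminal cells with Tgm4 stood at 0.18 in set 1 and at -0.17 in set 2, also opposite and also not tested. The cells with high Krt6a and Clu themselves lay in different clusters, 81.9% of those of set 1 in the cluster led by Krt6a and Clu and 71.0% of those of set 2 in the one led by Pate4 and Svs genes. Of the Tgm4 cells, 54.1% and 56.5% were in the cluster led by 9530053A07Rik and Ren1, while 33.0% of those of set 1 were in the Krt6a and Clu cluster and 26.6% of those of set 2 in the Pate4 and Svs cluster. In both cases the other luminal cells of the sets belong to different clusters too, and the sets are 1 library each.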

How the results depend on the processing

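Against 258 alternative values, 121 stayed within the counting interval of the value reported, and because these intervals are narrow most of the others moved by small amounts. On the log2 scale, and in the order nuclear then mitochondrial, with mt- UMIs left out of the total, luminal over basal was 0.58 and 0.29 in set 1 and 0.24 (mitochondrial) in set 2, EGFP-high over EGFP-0 luminal in set 1 was 0.11 and 0.28, and luminal set 2 over set 1 was 0.39 and 0.33. With every gene over 1% of UMIs left out of the total, the same comparisons were 0.54 and 0.24, 0.83 and 0.20, 0.12 and 0.29, and 0.39 and 0.33, EGFP in luminal cells of set 2 was 0.18 (mitochondrial), and EGFP in basal cells was -0.011 and 0.083. With every cell weighing the same, luminal over basal in set 1 was 0.58 (nuclear), EGFP in luminal cells was 0.054 (nuclear, set 1) and 0.21 (mitochondrial, set 2), and set 2 over set 1 was 0.37 and 0.29. With doublets kept, luminal over basal in set 1 was 0.56 and 0.27, EGFP luminal in set 1 was 0.26 and set 2 over set 1 was 0.32 (both mitochondrial). With classes from clusters, luminal over basal was 0.54 and 0.26 in set 1 and 0.18 (mitochondrial) in set 2, set 2 over set 1 was 0.39 and 0.31, EGFP luminal in set 1 was 0.28 (mitochondrial), and EGFP in basal cells was 0.022 and 0.12, so that the nuclear value there turned from -0.03; the cause was not tested. After thinning before the EGFP split, the mitochondrial values were 0.20 in luminal and 0.048 in basal cells of set 1, and with under 5 EGFP UMIs as the lower side 0.19 and 0.041. With every cell weighing the same, the mitochondrial value of seminal-gene luminal cells of set 2 turned from -0.0068 to 0.0041. At a 2-fold limit, with higher and lower members counted together, 22 and 35 nuclear members passed in luminal over basal (47 and 62 at 1.5-fold), 8 in place of 18 for EGFP in luminal cells of set 2, 0 in place of 1 for EGFP in basal cells and 5 in place of 17 for set 2 over set 1. Shares of all genes were taken at 1.5-fold only, so the 2-fold counts have no share of all genes beside them. No paired analysis was possible because neither library has a replicate. Basal cells of set 2 and EGFP-0 luminal cells of set 2 are few, which limits the depth of their values.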
